A study of Mus musculus with 2 samples.

Results

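The genes described here are 7 genes that carry calcium and sodium across the membrane of heart cells or that build the channels doing so. They are the calcium channel genes Cacna1c, Cacnb2, Cacna2d1, Cacna1g and Cacna1h, the sodium channel beta subunit gene Scn4b, and the sodium-calcium exchanger gene Slc8a1. They were chosen by gene name, and every transcript model that carried one of these names was taken, whatever its class or structure. All 7 had reads in both libraries, out of 15848 annotated genes with at least 1 read in either. Together they held 150 reads in replicate 1 and 150 in replicate 2, which was 0.0175% and 0.0212% of the reads of annotated genes. These reads fell on 54 and 66 transcript models, of which 38 and 46 held 1 read each.

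In a heart muscle cell an action potential opens L-type calcium channels, and the calcium that enters triggers the release of more calcium from the sarcoplasmic reticulum, which starts contraction. Cacna1c encodes the pore of the cardiac L-type channel, Cacnb2 encodes an intracellular beta subunit that brings the pore to the membrane and tunes its gating, and Cacna2d1 encodes an extracellular alpha-2-delta subunit. Cacna1g and Cacna1h encode pores of T-type channels, which open at more negative voltages and are known from pacemaker and conduction cells. Slc8a1 encodes the exchanger that moves calcium out of the cell in return for sodium, and Scn4b encodes a beta subunit of voltage-gated sodium channels. Cacna1c and Cacnb2 are also textbook cases of genes with several first exons and with exons that replace each other.

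The libraries came from whole heart tissue of untreated female B6CASTF1/J mice, a first-generation cross of a C57BL strain with a CAST strain, aged 2 months. The labels formed 1 group of 2 replicates, each made from 2 µg of total RNA, so no contrast between conditions exists. The sample labels number the animals 3 and 4, but the library text and the donor entry are the same for both libraries, and p-values therefore measure only the difference between these libraries. Replicate 1 held 905154 long reads and replicate 2 held 745375, and levels are given as reads per 1000000 reads of annotated genes (CPM), so that 1 read was worth 1.16 and 1.41 CPM. A long read stands for 1 cDNA molecule, and CPM is not divided by length. Where a gene had no read, its level could still be as high as 3.49 and 4.24 CPM (3 reads), and all intervals cover counting error only. The 4 cardiomyocyte markers held 28650 and 26695 reads in sum, the 7 pacemaker and conduction markers held 16 and 19, with Shox2, Isl1 and Cntn2 at 0, and the 4 neuron and Schwann cell markers held 3 and 4. In bulk tissue, fewer cells of a type and less RNA per cell cannot be told apart.

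The L-type pore and its beta subunit had the highest levels of the 7 genes, and with all models counted they were nearly equal. Without genomic models the means were 49.2 CPM for Cacnb2 and 40.2 for Cacna1c. Cacnb2 (ENSMUSG00000057914.15) had 41 reads in replicate 1 and 43 in replicate 2, at 47.7 and 60.8 CPM. Cacna1c (ENSMUSG00000051331.15) had 39 and 44 reads, at 45.4 and 62.2 CPM. Slc8a1 (ENSMUSG00000054640.15) followed with 39 and 25 reads, at 45.4 and 35.3 CPM. The ranges of Cacnb2 and Cacna1c over the libraries overlapped, and that of Slc8a1 met Cacna1c at 45.4 CPM but lay below Cacnb2 in both libraries. The alpha-2-delta gene Cacna2d1 (ENSMUSG00000040118.15) lay well below its partner subunits, with 15 and 11 reads at 17.5 and 15.5 CPM. Its libraries did not overlap those of the 3 genes above it.

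The T-type pores and the sodium channel beta subunit were each read by a few molecules. Cacna1g (ENSMUSG00000020866.17) had 8 and 13 reads, at 9.31 and 18.4 CPM, a range that holds both values of Cacna2d1. Scn4b (ENSMUSG00000046480.6) had 6 and 7 reads, at 6.98 and 9.89 CPM. Cacna1h (ENSMUSG00000024112.16) had 2 and 7 reads, at 2.33 and 9.89 CPM, and its value in replicate 1 lay below the limit that a count of 0 allows. Cacna1g overlapped Scn4b, and Scn4b overlapped Cacna1h, so these 3 were not separated from each other either. Means over both libraries were 54.2 ± 9.22 CPM for Cacnb2, 53.8 ± 11.9 for Cacna1c, 40.4 ± 7.12 for Slc8a1 and 16.5 ± 1.35 for Cacna2d1 (SD, n = 2). They were 13.8 ± 6.40 CPM for Cacna1g, 8.44 ± 2.06 for Scn4b and 6.11 ± 5.35 for Cacna1h (SD, n = 2).

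**Figure D1:**
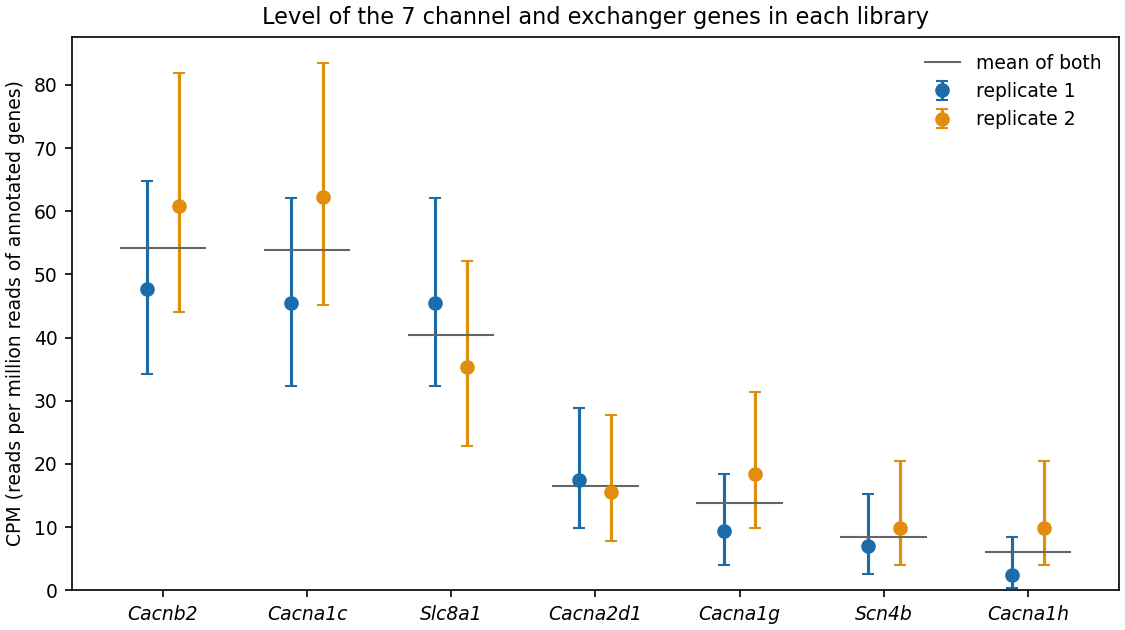
Level of each gene in CPM, with replicate 1 in blue and replicate 2 in orange, exact Poisson 95% intervals as bars and the mean of both libraries as a grey line. Cacnb2, Cacna1c and Slc8a1 lie at 35.3 CPM or above in both libraries, and the other 4 genes at 18.4 CPM or below.

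Between the libraries none of the 7 genes was called different. The test was an exact binomial test, two-sided and conditional on a gene's summed reads, run on every gene with 10 or more reads. A gene was called when its Benjamini-Hochberg adjusted p was below 0.05 and its fold reached 2. Of 9334 such genes 30 were called, which is 0.321%, and of the 7 genes 6 were tested, with 0 called and 0 at an unadjusted p below 0.05. With no fold minimum 107 genes were called, or 1.15%, and again 0 of the 6. The largest log2 ratio was that of Cacna1g, with a log2 ratio of replicate 2 over replicate 1 of 0.95 (adjusted p = 0.754 by the exact test). Cacna1c had a log2 ratio of 0.45 (adjusted p = 0.787 by the exact test), with a fold of 1.37 and an exact interval from 0.870 to 2.16. Slc8a1 had a log2 ratio of -0.35 (adjusted p = 0.945 by the exact test). With genomic models left out, the log2 ratio of Slc8a1 was -3.55 (adjusted p = 3.13e-05 by the exact test) and its mean level 21.8 CPM, since 4 and 23 of its reads were on such models. The median log2 ratio of the 6 genes was 0.40, beside 0.05 over all genes tested. Cacna1h, at 9 reads in total, was below the read minimum.

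The genes also differed in how their transcripts were read. Each model was classed by the authors as an annotated transcript, as an incomplete match whose splice junctions are part of an annotated chain, as a new combination of annotated splice sites, as a model with an unannotated splice site, or as genomic. Some deposited models departed from these descriptions. An incomplete match of Cacna1g crossed an unannotated junction, and an incomplete match of Slc8a1 had 1 exon and no junction. Only Cacnb2, Scn4b and Cacna2d1 had reads on annotated transcripts. Cacnb2 had 29 of 41 reads there in replicate 1 and 33 of 43 in replicate 2, which was 70.7% and 76.7% (exact intervals 54.5 to 83.9 and 61.4 to 88.2). Scn4b had 3 of 6 and 4 of 7, and Cacna2d1 had 4 of 15 and 2 of 11. Cacna1c, Cacna1g, Cacna1h and Slc8a1 had 0 such reads in either library, which for Cacna1c allows a share of up to 3.61% of its 83 reads. Cacna1c had 24 and 26 reads on incomplete matches, 2 and 2 on new combinations, 3 and 5 on models with an unannotated site, and 10 and 11 on genomic models. All 9 reads of Cacna1h were incomplete matches.

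**Figure D2:**
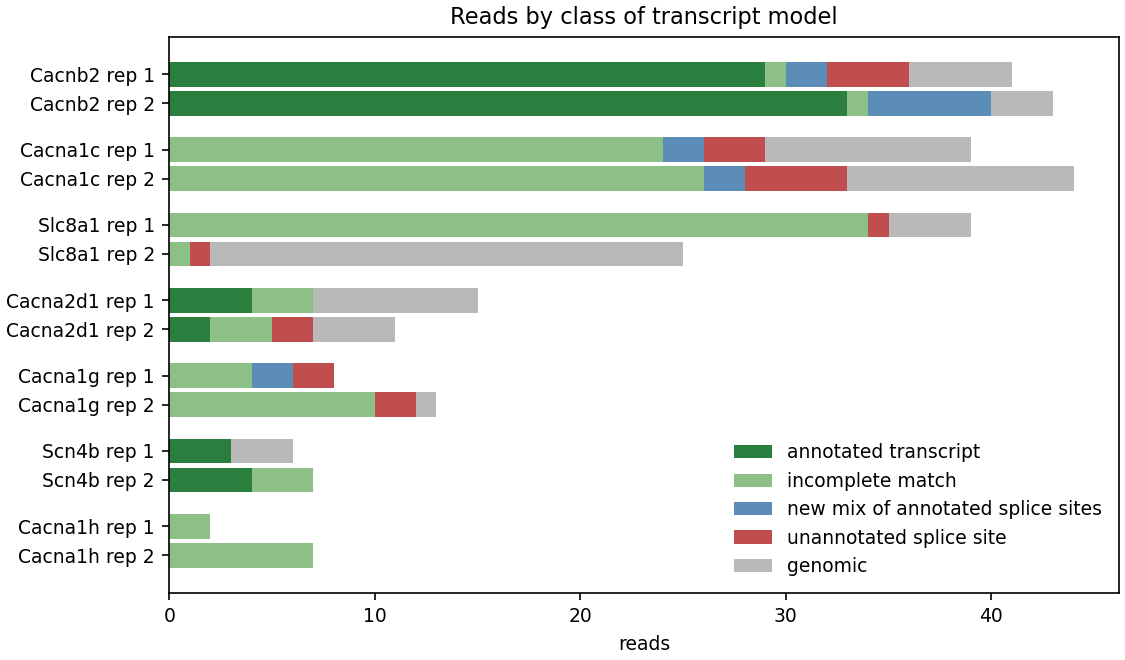
Reads of each gene in each library, as horizontal bars split by the class of the transcript model. Cacnb2 has the most reads on annotated transcripts (29 of 41 and 33 of 43), and the bar of Slc8a1 changes from incomplete match in replicate 1 (34 of 39 reads) to genomic in replicate 2 (23 of 25).

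This order followed transcript length across all genes as well. Among 8939 protein-coding genes with at least 10 reads, the median share of reads on annotated transcripts was 88.7% where the longest coding transcript was below 2000 bases, 78.4% from there to 4000 bases, 61.5% to 6000, 39.7% to 8000 and 19.5% at 8000 bases or more. In the last class 23.3% of 399 genes had 0 such reads. Cacnb2, with a longest coding transcript of 3945 bases, had 73.8% over both libraries, and 41.6% of the genes of its length class had less. Scn4b (4982 bases) had 53.8%, with 41.9% of its class below it, and Cacna2d1 (7436 bases) had 23.1%, with 33.7% below it. Cacna1g (8383 bases), Cacna1c (13162 bases) and Slc8a1 (18464 bases) stood at 0 with the 23.3%. The part of the long introns of Cacna1c and Slc8a1, named above, was not tested. All 6 shares lay below the median of their length class, a difference that was not tested.

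**Figure D3:**
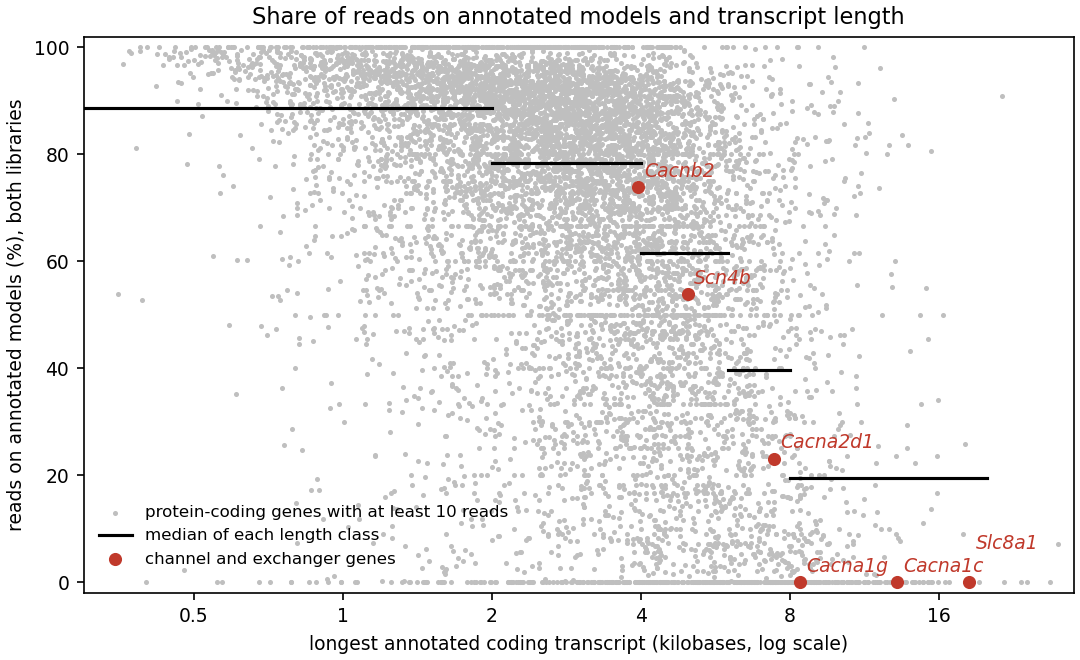
Share of reads on annotated models in percent against the longest annotated coding transcript in kilobases (log scale), with 1 grey point for each protein-coding gene with at least 10 reads, black lines for the median of each length class and red points for 6 of the 7 genes (Cacna1h has 9 reads). Each red point lies below the median of its length class, by the amounts given in the text.

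Cacnb2 (chr2:14603088-14987908, plus strand, mm10) was read as nearly 1 transcript. Of its 16 annotated transcripts, Cacnb2-214, with 13 exons and 2117 bases, took 28 of the 29 annotated reads in replicate 1 and all 33 in replicate 2 (adjusted p = 1 by Fisher's exact test, where 1 of 3490 genes was called, or 0.0287%). Every one of its 12 junctions was crossed in both libraries, from 32 and 38 reads at the first junction to 34 and 40 at the last, so that most molecules were read from the first exon to the last. The models of annotated transcripts carry the annotated ends, and 33 and 38 reads had their 5′ end within the RefSeq promoter window of this start. The first exon beginning at chr2:14824026 was used by 32 and 38 reads. Another annotated start, at chr2:14604306, gave 0 and 0 reads. The windows of both starts are shown because they differ in base content, taken from RefSeq on GRCm38.p6, from 250 bases before to 50 bases after the start, with each CG dinucleotide in capitals.
Cacnb2 start with reads, chr2:14823842-14824141, plus strand: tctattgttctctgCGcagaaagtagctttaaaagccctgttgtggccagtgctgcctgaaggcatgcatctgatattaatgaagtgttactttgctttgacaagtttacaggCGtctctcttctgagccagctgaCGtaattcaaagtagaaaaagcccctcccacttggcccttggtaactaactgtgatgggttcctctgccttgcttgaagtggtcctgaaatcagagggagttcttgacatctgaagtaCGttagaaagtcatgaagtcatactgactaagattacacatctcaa
Cacnb2 start without reads, chr2:14604056-14604355, plus strand: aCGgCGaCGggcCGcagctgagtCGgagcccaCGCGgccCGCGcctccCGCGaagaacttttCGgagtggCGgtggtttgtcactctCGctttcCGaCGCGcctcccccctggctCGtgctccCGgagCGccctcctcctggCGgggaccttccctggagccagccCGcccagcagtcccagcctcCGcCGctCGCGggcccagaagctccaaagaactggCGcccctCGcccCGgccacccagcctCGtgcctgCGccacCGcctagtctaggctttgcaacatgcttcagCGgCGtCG

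The window with reads held 4 CG dinucleotides and 44% G or C. The window without reads held 35 and 71.7%. Of 32851 RefSeq promoter windows of 300 bases, 31.4% held fewer CG dinucleotides than the former and 93.0% fewer than the latter, with a median of 7. The first intron of the transcript that begins at the start without reads is 260413 bases long, a length that matters for these libraries and is taken up with Cacna1c. Each of the remaining annotated first exons of Cacnb2 had 0 or 1 read in either library.

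Inside Cacnb2 there is a site where the annotation offers a 134-base exon or a 20-base exon. The 134-base exon was used by 35 and 39 reads and the shorter one by 0, which allows up to 4.05% of these 74 reads. A further read of replicate 2 skipped both, over an annotated junction (chr2:14963998-14971561). The exons, from GENCODE M21, are shown because they separate forms of the subunit that differ between its conserved domains, and all letters are in lower case since they do not align.
Cacnb2 exon with reads, chr2:14967942-14968075, plus strand: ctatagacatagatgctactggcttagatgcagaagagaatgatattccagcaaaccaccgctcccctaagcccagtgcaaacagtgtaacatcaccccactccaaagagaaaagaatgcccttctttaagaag
Cacnb2 exon without reads, chr2:14968218-14968237, plus strand: caaagcagaagcagaagtcg

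Nearer the 3′ end, acceptors 3 bases apart were used in a ratio of 33 to 3 in replicate 1 and 37 to 3 in replicate 2, the first-named being the upstream one. Reads outside the annotated transcripts ended later: 10 reads of replicate 1 ended at position 14987423 and 4 of replicate 2 at 14987422, beyond the end of Cacnb2-214 at 14986211. The model end of an annotated transcript is that of the annotation, so the true ends of the 28 and 33 reads on Cacnb2-214 are not in the counts.

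Cacna1c (chr6:118587240-119196418, minus strand) had the most models of the 7 genes, 26 on 39 reads in replicate 1 and 25 on 44 reads in replicate 2, although Cacna1g had more for its reads, 7 on 8 and 13 on 13. Only 5 splice chains, 21.7% of the 23 in replicate 1 and 23.8% of the 21 in replicate 2, were seen in both libraries. Along the 46 junctions of the transcript Cacna1c-203, the number of reads rose from the 5′ to the 3′ end. The fourth junction was crossed by 2 and 5 reads, the 23rd by 10 and 8, and the last by 26 and 27. The longest models had 44 and 45 exons.

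**Figure D4:**
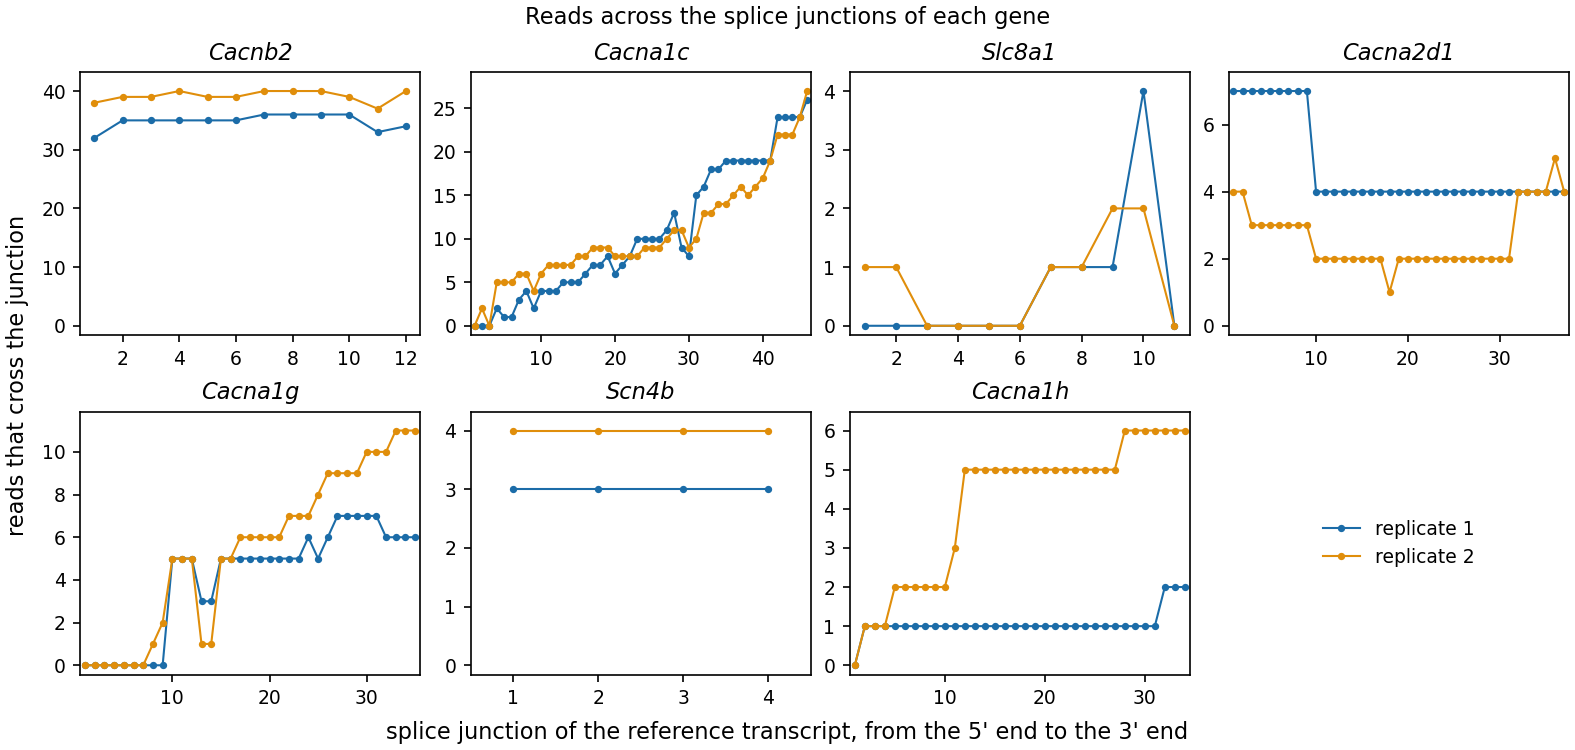
Reads that cross each splice junction of 1 reference transcript per gene, numbered from the 5′ to the 3′ end, with replicate 1 in blue and replicate 2 in orange. Cacnb2 and Scn4b are flat, Cacna1c, Cacna1g and Cacna1h rise toward the 3′ end, and Slc8a1 has at most 4 reads at any junction.

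At the 5′ end, Cacna1c is known to begin at a distal first exon in heart and at a proximal one in smooth muscle and brain. The distal first exon, at chr6:119196418, began 2 reads in replicate 1 and 5 in replicate 2. The proximal one, at chr6:119108573 and shared by 12 annotated transcripts, began 0 and 0. In each library a count of 0 allows 3 reads, more than the 2 distal reads of replicate 1 and fewer than the 5 of replicate 2. These counts are too small to settle the share of either start. The windows of both starts are given from RefSeq (GRCm38.p6), on the transcribed strand, with CG in capitals.
Cacna1c distal start with reads, chr6:119196360-119196659, minus strand: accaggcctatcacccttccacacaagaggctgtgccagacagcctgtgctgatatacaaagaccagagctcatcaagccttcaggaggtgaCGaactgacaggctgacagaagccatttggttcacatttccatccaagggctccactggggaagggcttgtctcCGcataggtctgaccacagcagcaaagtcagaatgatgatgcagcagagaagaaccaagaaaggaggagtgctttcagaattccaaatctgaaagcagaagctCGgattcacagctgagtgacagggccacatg
Cacna1c proximal start without reads, chr6:119108446-119108745, minus strand: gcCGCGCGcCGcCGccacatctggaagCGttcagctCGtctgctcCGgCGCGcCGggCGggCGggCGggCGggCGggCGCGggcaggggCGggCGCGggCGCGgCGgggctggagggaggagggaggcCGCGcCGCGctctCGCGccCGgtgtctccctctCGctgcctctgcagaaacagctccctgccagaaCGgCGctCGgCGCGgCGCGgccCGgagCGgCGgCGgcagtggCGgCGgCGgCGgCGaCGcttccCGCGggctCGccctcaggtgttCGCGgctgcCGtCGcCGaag

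The distal window held 3 CG dinucleotides, and 23.3% of all promoter windows held fewer. The proximal window held 57, and 99.8% of all windows held fewer. A further RefSeq start of Cacna1c, with its window at chr6:118757925-118758224, held 7, the median of all windows, and had 0 and 0 reads. Whether CG content goes with reads was not tested. The RefSeq table held windows for 5 of the 7 genes, not for Cacna1g and Cacna1h. The starts of Cacna2d1 (3 and 1 reads in the window) and Scn4b (3 and 4 reads, on a model with the annotated ends) held 42 and 26. The Slc8a1 window, with 0 and 1 reads, held 9.

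None of the 7 reads from the distal Cacna1c exon went on into the body of the gene. In replicate 2, 2 reads joined it to the annotated second exon and the third, ran past it and ended inside the next intron, at position 119050573. Another 4 reads (1 and 3) joined it to an unannotated exon ending at position 119192824, and 1 read of replicate 1 to one ending at 119170845. Downstream, 2 and 5 reads were on models that begin at the start of the fourth exon, at position 118780324, where 4 annotated transcripts also begin. Between these groups lies an intron of 272276 bases (chr6:118780325-119052600), which 17 annotated transcripts share and which 0 and 0 reads crossed. With 36 and 37 reads wholly downstream of this intron, and 3 and 6 beginning upstream of it, no molecule linked a first exon upstream of this intron to the exons downstream of it. For 28 of 39 and 39 of 44 reads of Cacna1c, the 5′ end of the model lay at an edge of an annotated exon. Whether the reads themselves began there was not tested.

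Introns of this length were hardly crossed anywhere in these libraries. In genes with at least 20 reads, 135 of 244 annotated introns from 100 to 150 kilobases were crossed by at least 1 read, which is 55.3% (exact interval 48.9 to 61.7). From 150 to 200 kilobases it was 41 of 89, or 46.1% (35.4 to 57.0). At 200 kilobases or more it was 1 of 52, or 1.92% (0.0487 to 10.3), and the 1 intron crossed was the 202215-base intron of Slc8a1, by 1 read. The settings of the alignment are not given in the sources used here, and their part in this drop was not tested. The counts of 0 at the Cacna1c intron and at the upstream start of Cacnb2, whose first intron has 260413 bases, fall in this length class and do not tell whether such molecules were present.

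**Figure D5:**
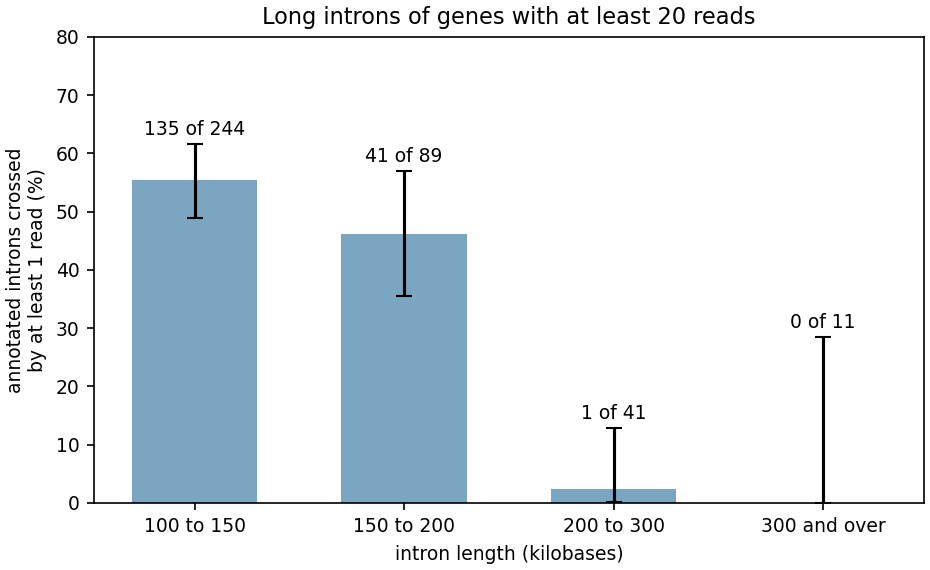
Share of annotated introns crossed by at least 1 read, in percent with exact 95% intervals, by intron length in kilobases, for genes with at least 20 reads over both libraries. The share falls from 46.1% (41 of 89) in the class from 150 to 200 kilobases to 1 of 41 and 0 of 11 in the classes above it.

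Cacna1c has 3 places where the annotation offers either of 2 exons of equal length, each coding for a stretch of a membrane domain. At the first of them, 104 bases long, all 3 and 6 reads carried the upstream exon and 0 the downstream one. At the next, 60 bases long, 1 and 1 reads carried the upstream exon and 6 and 8 the downstream one, and 1 read of replicate 1 carried both. At the last, 84 bases long, 4 and 0 reads carried the upstream exon and 7 and 10 the downstream one in full. The exons of each pair follow from GENCODE M21 on the transcribed strand, with capitals at the positions where the members of a pair differ.
Cacna1c 104-base pair, upstream, chr6:118742265-118742368, minus strand: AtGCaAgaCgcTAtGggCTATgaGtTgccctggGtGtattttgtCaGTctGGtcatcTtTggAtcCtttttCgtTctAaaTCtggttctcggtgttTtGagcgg
Cacna1c 104-base pair, downstream, chr6:118741871-118741974, minus strand: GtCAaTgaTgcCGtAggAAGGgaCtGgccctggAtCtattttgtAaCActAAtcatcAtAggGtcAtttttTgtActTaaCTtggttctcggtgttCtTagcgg
Cacna1c 60-base pair, upstream, chr6:118674555-118674614, minus strand: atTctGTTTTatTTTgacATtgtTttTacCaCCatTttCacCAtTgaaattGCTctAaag
Cacna1c 60-base pair, downstream, chr6:118674346-118674405, minus strand: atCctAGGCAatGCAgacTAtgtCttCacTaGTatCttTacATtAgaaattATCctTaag
Cacna1c 84-base pair, upstream, chr6:118638427-118638510, minus strand: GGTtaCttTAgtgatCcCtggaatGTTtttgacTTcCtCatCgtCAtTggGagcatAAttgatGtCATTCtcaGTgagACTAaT
Cacna1c 84-base pair, downstream, chr6:118637730-118637813, minus strand: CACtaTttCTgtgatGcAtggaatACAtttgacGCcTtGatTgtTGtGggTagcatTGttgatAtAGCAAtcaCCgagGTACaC

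The members of the pairs differ at 32 of 104, 25 of 60 and 35 of 84 positions, an identity of 69.2%, 58.3% and 58.3%. The 60-base pair favoured its downstream exon in both libraries, the upstream one taking 12.5% of 16 reads (exact interval 1.55 to 38.3). At the 84-base pair the upstream exon took 19.0% of 21 reads (5.45 to 41.9), all 4 of them in replicate 1. With the reads on a shortened form of the downstream exon, described below, it took 16.7% of 24 reads (4.74 to 37.4). The 104-base site rests on 9 reads, where a count of 0 allows up to 33.3%.

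Exons of Cacna1c that are included or skipped were read as well. The 33-base exon, in a linker of the last repeat domain, was included by 14 and 10 reads and skipped by 0 and 1, a share of 96.0% (79.6 to 99.9). The 75-base exon was included by 2 and 2 reads and skipped by 2 and 4, with an exact interval from 12.2 to 73.8%. Both are given in lower case from GENCODE M21.
Cacna1c 33-base exon, mostly included, chr6:118630399-118630431, minus strand: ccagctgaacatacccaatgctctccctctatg
Cacna1c 75-base exon, included and skipped, chr6:118715903-118715977, minus strand: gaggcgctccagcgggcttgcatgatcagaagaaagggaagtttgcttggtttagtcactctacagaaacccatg

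Next to the 84-base downstream exon, 2 and 1 reads used an unannotated donor 6 bases inside it, against 8 and 9 from the annotated donor to the same acceptor. From the annotated donor, 1 further read of replicate 2 went to a later acceptor (chr6:118627571-118637729). The 3′ ends of Cacna1c models lay mainly at 2 annotated transcript ends 15 bases apart, at position 118592319 with 15 and 20 reads and at position 118592304 with 10 and 13. A further annotated end at position 118587240 held 8 and 3 reads, all on models without a splice.

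Cacna2d1 (chr5:15934691-16374511, plus strand) was read both as whole splice chains and as fragments of either end. The full splice chain of its main transcript, Cacna2d1-209 with 38 exons, was held by 4 reads in replicate 1 and 1 in replicate 2. That of Cacna2d1-201, which adds a 57-base exon (chr5:16322539-16322595) and uses another acceptor after it, was held by 0 and 1. All 37 junctions of Cacna2d1-209 were crossed in both libraries, among them an intron of 137127 bases with 7 and 3 reads. A shorter form of 10 exons that ends at position 16268604, an annotated end, had 3 and 1 reads. A 21-base exon (chr5:16341990-16342010) was skipped by all 4 and 2 reads that covered it, and the 57-base exon was included by 0 and 1 and skipped by 4 and 1. Single-exon genomic models at the 3′ end held 8 and 4 of the 15 and 11 reads.

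The T-type genes were read mostly from their 3′ parts. Cacna1g (chr11:94408391-94474198, minus strand) had 0 reads across the first 7 of the 35 junctions of Cacna1g-203 and 6 and 11 across the last. Its annotated first exon, shared by 12 transcripts, had 0 reads in both libraries. Downstream of it, 5 and 1 reads crossed an unannotated junction (chr11:94444179-94451780), with model starts at position 94451846 in replicate 1 and 94451845 in replicate 2, within the gene. These models held 14 to 28 exons in replicate 1 and 27 in replicate 2, and the authors' classes for them differ, from incomplete match to unannotated site. A further 2 reads of replicate 2 joined the same acceptor to another unannotated donor (chr11:94444179-94450604). All these starts lie inside the annotated intron that ends at this acceptor, chr11:94444179-94456959, which 0 and 2 reads crossed. Whether these starts replace the annotated first exon was not tested.

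A 54-base exon of Cacna1g was included by all 6 and 8 reads that covered it, although it is optional in the annotation, with 6 transcripts that hold it. Donors 21 bases apart on the exon before it were used by 1 and 0 reads at the downstream site and 5 and 8 at the upstream one. A 69-base exon (chr11:94439709-94439777) was included by 3 and 1 reads and skipped by 2 and 3. The 54-base exon is printed from GENCODE M21.
Cacna1g 54-base exon, included in every read, chr11:94423671-94423724, minus strand: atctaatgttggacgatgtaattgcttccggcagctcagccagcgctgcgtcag

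Cacna1h (chr17:25374285-25433783, minus strand) had few reads, but 1 in each library spanned 34 exons and 7998 bases of model from the first exon at position 25433278 to the 3′ end. Of the 34 junctions of Cacna1h-201, 33 were crossed in both libraries, and the first, from the exon at position 25433783, by 0. The 122-base exon at chr17:25377762-25377883 was included by all 1 and 6 reads that covered it.

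Scn4b (chr9:45138395-45154152, plus strand) has 1 annotated transcript of 5 exons and 4982 bases. All 4 of its junctions were crossed by 3 and 4 reads. These reads carry the annotated ends, so how far each reached into the outer exons is not in the counts. Its other 3 and 3 reads were single-exon models at the 3′ end, classed genomic in replicate 1 (2816 bases) and incomplete match in replicate 2 (3742 bases). All 13 reads were on models that end at the annotated position 45154152.

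Slc8a1 (chr17:81373105-81738377, minus strand) was almost wholly read on single-exon models in its 3′ part. Single-exon models held 35 of 39 reads in replicate 1 and 23 of 25 in replicate 2, or 89.7% and 92.0%. Of the 399 genes with coding transcripts of 8000 bases or more, 4.51% had a higher share of single-exon reads than Slc8a1, and their median was 18.2%. In replicate 1, 31 of these reads formed a model of 3465 bases (chr17:81385603-81389067), which begins at the start of the last exon, and were classed as an incomplete match. In replicate 2, 20 reads sat on a model with the same 3′ end whose deposited length is 1 base, classed as genomic. The remaining 4 and 3 single-exon reads ended at position 81373609, near the end of the gene.

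The class shares of Slc8a1 differed accordingly. On single-exon genomic models it had 10.3% in replicate 1 and 92.0% in replicate 2, with an adjusted p of 3.51e-09 by Fisher's exact test, where 176 of 4651 genes tested were called (3.78%). For single-exon models of any class the adjusted p was 1 by the same exact test, with 7 of 4651 genes called (0.151%), and Cacna1c and Cacnb2, the other genes with enough reads, were called in neither. The called difference in Slc8a1 was thus one of the genomic class. Single-exon models of any class, a measure chosen after seeing the data, held 89.7% and 92.0% of its reads. In replicate 2, 20 of these reads sat on the 1-base model, which cannot show whether they were spliced. Why the class differed was not tested. Fisher's exact test on the share of annotated transcripts called 6 of 4651 genes (0.129%) and none of the 3.

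Spliced reads of Slc8a1 were 4 and 2. In each library 1 of them crossed an unannotated junction (chr17:81437850-81445486) that skips the small optional exons of the exchanger's regulatory loop and ends at an unannotated acceptor, and the rest lay within the 3′ exons. The read of replicate 2 was the longest, with 8 exons and 6083 bases of model from the first exon at position 81738377. It crossed both the 88670-base and the 202215-base intron. With 2 reads at the optional exons, no share of their use can be given.

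The other genes of these families placed the levels in context. The lists held 53 further channel, exchanger and regulator genes, of which 33 had reads and 19 were tested between the libraries. With no fold minimum 0 of the 19 were called, beside 107 of 9334 genes (1.15%), so few calls could arise among 19. Their median log2 ratio was 0.10. Among 7 other calcium channel pores, 5 were at 0, including Cacna1d, the L-type pore known from pacemaker cells, and Cacna1s, the skeletal muscle pore, had 13 and 9 reads. Slc8a2 was at 0 and Slc8a3 had 1 read in all, so that Slc8a1 held nearly all reads of the plasma membrane exchanger genes.

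Among the auxiliary subunits, the deposited counts placed Cacna2d3 above Cacna2d1, at 83 and 64 reads against 15 and 11. Of these, 81 and 64 were on 1 unspliced genomic model per library (chr14:29028772-29031083 and chr14:29029787-29033645, minus strand). Both models lie inside an intron of Cacna2d3, away from its exons, and overlap exons of Lrtm1, a gene on the opposite strand with 68 and 62 reads. Spliced reads of Cacna2d3 were 2 and 0, against 7 and 7 for Cacna2d1. Counted on spliced reads, Cacna2d1 was thus the alpha-2-delta gene with more reads in both libraries. Rrad, a small GTPase that inhibits L-type channels, had 41 and 38 reads, and Jph2, which holds the channels near the sarcoplasmic reticulum, had 64 and 44.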

How the data were processed

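Long-read RNA sequencing of heart was analysed in 2 libraries. The authors deposited counts of long reads per transcript model, 1 table per library, and a gene annotation file of the models, on mm10 and GENCODE M21 with TALON classes, per the file headers and texts. The deposited counts are whole numbers and not normalized. Aligner, versions and filters are not given in the sources used here.

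Gene levels are sums over all models of a gene, spike-ins left out. CPM used the 859191 and 707758 reads of annotated genes. Log2 ratios used 0.5 added reads. Junctions, exons and ends were read from the deposited models and compared with GENCODE M21. Model ends may differ from the ends of the reads themselves. An exon or junction was counted when a model held it exactly, and a count of 0 allows 3 reads. Intervals are exact at 95% (Poisson for counts, Clopper-Pearson for shares).

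The tests were a two-sided exact conditional binomial test per gene and two-sided Fisher's exact tests of shares for genes with at least 20 reads in each library, each with Benjamini-Hochberg adjustment over all genes tested (SciPy 1.17.1, pandas 2.3.3). edgeR 4.0.16 (exact test with preset variation, TMM) and DESeq2 1.42.0 (size factors) served as alternatives, since 1 group of 2 leaves no residual degrees of freedom for edgeR's quasi-likelihood test. The tests were tried on simulated counts. Genes named are the 7 members in every measure and genes of 6 further lists with at least 10 reads. Some genes of these lists are not reported here. Slc8a3, Cacna1d, Slc8a2, Lrtm1 and the marker genes at 0 were named outside that rule, after their values were seen. Members and lists were chosen with earlier results of these data known. The reference sequences are those of C57BL/6J, and the animals are hybrids.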

Additional observations from a re-analysis of the deposited data

Results flagged for a closer look

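Unannotated genes antisense to the channel and exchanger genes held reads that the comparisons above did not use. They had 68 reads on 36 models in replicate 1 and 65 on 29 models in replicate 2, and 35 and 29 of these models had 1 exon. In all genes together, antisense models held 3.32% and 3.41% of the reads off the spike-ins. That is a share of a library, so it cannot show whether the counts over these genes are high. A comparison with other genes was not tested. The genes are listed where their summed antisense reads in a library were more than the 3 reads that a count of 0 allows.

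Over Cacna1c there were 27 antisense reads in replicate 1 and 33 in replicate 2, beside 39 and 44 in sense. A model at chr6:118995169-118998326, inside the 272276-base intron, had the same ends in both libraries, with 5 and 7 reads. Models ending at position 118637730, at the edge of the 84-base downstream exon, had 4 and 7 reads. Over Slc8a1 there were 20 and 9 antisense reads, and over Cacnb2 9 and 14, among them a model at chr2:14959759-14965419 with 3 and 3 reads and the same ends in both libraries. Cacna2d1 had 6 and 6 antisense reads. Scn4b had 6 in replicate 1, equal to its 6 sense reads, and 2 in replicate 2, which is below the limit. The labels give no strand setting, and whether these reads are transcripts of their own was not tested.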

How the results depend on the processing

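No paired analysis was possible because the labels give 1 group. The count of genes called between the libraries was 30, and became 15 on annotated models only, 12 and 4 with edgeR's exact test at a preset variation of 0.1 and 0.2, and 107 with no fold minimum. Of the 6 genes tested, Slc8a1 alone was called under an alternative: without genomic models its log2 ratio was -3.55 (adjusted p = 3.13e-05 by the exact test, against 0.945 with all models and a range from 3.13e-05 to 1 over its alternatives), because its 20 reads on the 1-base model were left out. The ratio of Cacna2d1 ranged from -0.20 to 0.28, so its direction was not stable, and that of Scn4b from 0.44 to 1.38, the latter without genomic models (adjusted p = 0.806 by the exact test). The ratio of Cacna1h, below the read minimum, is not reported under any setting. Genes called on the share of annotated models numbered 6, and 57 with genomic models left out. Genes called on single-exon genomic models numbered 176, and 7 for single-exon models of any class, an alternative chosen after seeing the data. On annotated models only, the mean level was 0 CPM for Cacna1c, Cacna1g, Cacna1h and Slc8a1, 3.74 for Cacna2d1, 40.2 for Cacnb2 and 4.57 for Scn4b. Without genomic models it was 49.2 CPM for Cacnb2, 40.2 for Cacna1c, 9.02 for Cacna2d1 and 21.8 for Slc8a1. TMM and DESeq2 factors moved all log2 ratios by 0.05 and 0.04. With 1 replicate left out, the levels are those of the other library, given in the text. At this depth a gene of 10 reads has wide intervals, and most exon shares rest on fewer than 25 reads.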
